A study of Arabidopsis thaliana with 12 samples.

Results

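AT1G12010 encodes an ACC oxidase of Arabidopsis thaliana, known as ACO3, the enzyme type that carries out the last step of ethylene synthesis. It was measured by 1 probe set, which the platform annotation assigns to this gene alone, among 22746 probe sets and 13286 different genes named in the gene table. The gene lies on chromosome 1 and has 1 RefSeq transcript in the TAIR10.1 gene table. Whole dark-grown seedlings were profiled on 12 single-colour oligonucleotide arrays, 2 for each of 6 groups. Every sample title ends in polyA. The groups were ein2 after ethylene, ein2 in air, ein5 after ethylene, ein5 in air, wild type after ethylene and wild type in air. All seedlings had the Columbia background, the mutants being ein2-5 and ein5-1 and the wild type Col-0, so each mutant genotype was a single allele. Ethylene was given at 10 ppm for 4 h, per the series text, while the air groups stayed in hydrocarbon-free air. The text of the ein2 air 1 sample, like the series text, describes 3 days of growth at 24 °C, while the texts of the other 11 samples, ein2 air 2 among them, describe 5 days at 25 °C. The extraction protocol names mature leaves although the samples are labelled as seedlings.

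Ethylene is made from methionine by way of S-adenosylmethionine and 1-aminocyclopropane-1-carboxylic acid (ACC), which ACC synthases produce and ACC oxidases convert to the gas. ACC oxidases are soluble iron-dependent enzymes of the oxygenase superfamily that otherwise uses 2-oxoglutarate, and plants carry several of them. The gas is sensed by membrane receptors whose signal passes through EIN2, a membrane protein, to the transcription factor EIN3. Loss of EIN2 is known to make seedlings insensitive to the gas, and EIN5, also known as XRN4, is a cytoplasmic exoribonuclease whose loss is known to weaken ethylene responses.

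The transcript fell on ethylene in wild type, had a smaller change in the same direction in ein5 that did not pass the test, and lay higher on ethylene than in air in ein2, again short of the threshold. The responses of ein2 and wild type to the gas differed past the threshold. In air no difference between the 3 genotypes passed it. On ethylene, ein2 lay above wild type and ein5 lay below ein2, and both differences passed the test. Of the 12 comparisons made, 4 were called for this gene. A comparison was called when the Benjamini-Hochberg adjusted p over all 22746 probe sets was under 0.05 in a limma fit to all arrays. Levels are intensities after the arrays were brought to a common median, and changes are on the log2 scale of the intensity plus an offset of 16.

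The level of AT1G12010 in ein2 was 1861 and 2116 on the 2 ethylene arrays, against 1211 and 1639 on the 2 air arrays. In ein5 it was 886 and 932 after ethylene, against 1605 and 1263 in air. In wild type it was 808 and 563 after ethylene, against 2043 and 1702 in air. Within each genotype the ethylene and air arrays did not overlap, with the ethylene arrays on the high side in ein2 and on the low side in ein5 and wild type. All 4 ethylene arrays of wild type and ein5 lay below all 6 air arrays.

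**Figure D1:**
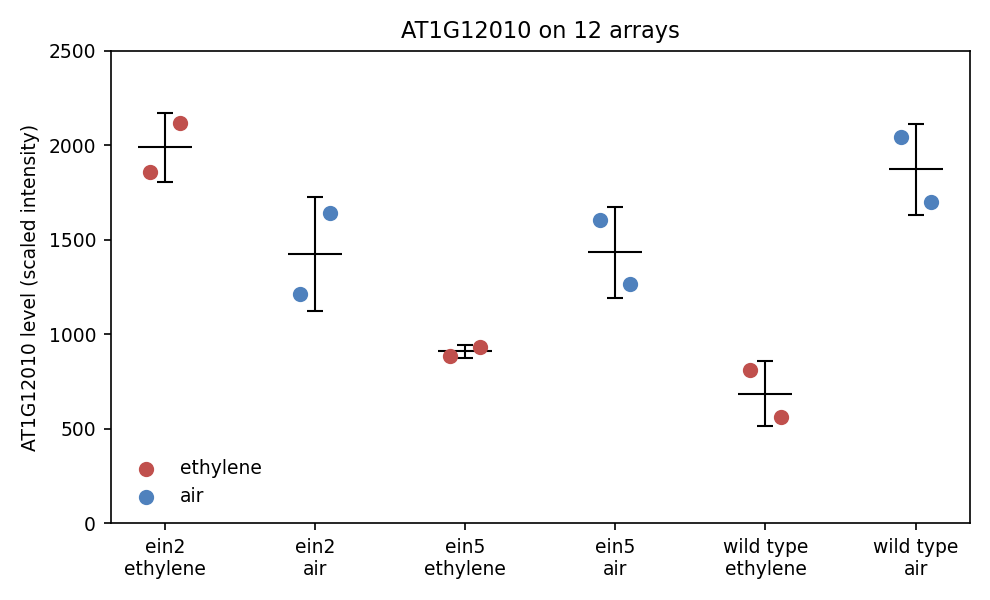
Level of AT1G12010 (vertical axis, scaled intensity, from 0) on each of the 12 arrays. Points are single arrays, horizontal bars are means of the 2 arrays of a group and whiskers are their SD. The 2 wild-type ethylene arrays, at 808 and 563, are the lowest of all, and the 2 ein2 ethylene arrays, at 1861 and 2116, lie in the range of wild type in air or above it.

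The first question was whether 4 h of ethylene changed the transcript in wild type. The mean level fell to 685 ± 174 after ethylene, against 1873 ± 241 in air (SD, n = 2 each). This was a log2 change of -1.45 ± 0.21 (standard error, here and for all changes), with a 95% interval of -1.90 to -0.99 and an adjusted p of 0.000435, or a 2.72-fold lower level. In this comparison 10.1% of all probe sets were called in either direction and 6.28% were called lower. AT1G12010 ranked 215 by size among the 1429 probe sets called lower. Leaving out each array in turn gave changes between -1.70 and -1.19, the extremes being those without 1 of the wild-type ethylene arrays. RNA came from whole seedlings, so a smaller share of cells that express the gene and less of its RNA per cell cannot be told apart.

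In ein5 the mean level was 909 ± 32.8 after ethylene, against 1434 ± 242 in air (SD, n = 2 each). The log2 change was -0.64 ± 0.21, with a 95% interval of -1.09 to -0.19. Its adjusted p was 0.188 over all probe sets, at an unadjusted p of 0.0091 from the same limma fit, so the change was not called. In ein5, 1.62% of probe sets were called in either direction and 0.849% were called lower. The interval leaves out 0 because it is not adjusted for the number of probe sets.

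In ein2 the mean level was 1988 ± 180 after ethylene, against 1425 ± 303 in air (SD, n = 2 each). The log2 change was 0.49 ± 0.21, with a 95% interval of 0.04 to 0.94 and an adjusted p of 0.448 at an unadjusted p of 0.0362 (limma). The difference was not called, in a comparison where 0.514% of probe sets were called in either direction and 0.475% were called higher. The change was 0.27 without ein2 air 1, the array whose text gives another age and temperature (adjusted p = 0.887), and 0.71 without ein2 air 2 (adjusted p = 0.507).

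The responses were then compared with each other. The response of ein2 minus that of wild type was 1.93 ± 0.30 (95% interval 1.29 to 2.58, adjusted p = 0.00232). In this test 3.75% of probe sets were called, 2.8% of all with a positive difference, and AT1G12010 ranked 80 by size among the 638 called with a positive difference. Without ein2 air 1 the difference was 1.72 (adjusted p = 0.0186). The response of ein5 minus that of wild type was 0.81 ± 0.30 (95% interval 0.17 to 1.45), with an adjusted p of 0.318 at an unadjusted p of 0.0173 from limma, against a background of 0.532% called. The response of ein5 minus that of ein2 was -1.13 ± 0.30 (95% interval -1.77 to -0.49, adjusted p = 0.178), where 0.0528% of probe sets were called. The ein5 response therefore lay between those of wild type and ein2, without a called difference from either.

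Genotypes were also compared within each gas. In air, ein5 minus wild type was -0.39 ± 0.21 (95% interval -0.84 to 0.07, adjusted p = 0.317), while 5.8% of probe sets were called. For ein2 minus wild type in air the difference was -0.40 ± 0.21 (95% interval -0.85 to 0.05, adjusted p = 0.382), with 2.71% of probe sets called, and it was -0.18 without ein2 air 1 (adjusted p = 0.834). The 2 mutants differed from each other in air by 0.01 ± 0.21 (ein5 minus ein2, 95% interval -0.44 to 0.47, adjusted p = 0.984), with 3.17% called, and by -0.20 without ein2 air 1 (adjusted p = 0.809). Both mutants thus had a mean near 76% of wild type in air (76.6% in ein5 and 76.1% in ein2), and both intervals include 0.

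On ethylene, ein2 lay 2.90-fold above wild type, a log2 difference of 1.53 ± 0.21 (95% interval 1.08 to 1.99, adjusted p = 0.000262), in a comparison with 9.87% of probe sets called. The level in ein5 was 2.16-fold below that in ein2, a log2 difference of -1.11 ± 0.21 (95% interval -1.57 to -0.66, adjusted p = 0.00476), with 10.2% of probe sets called. Without the ein2 ethylene 2 array this second difference was -1.02 and was no longer called (adjusted p = 0.0659). Between ein5 and wild type on ethylene the difference was 0.42 ± 0.21 (95% interval -0.03 to 0.87, adjusted p = 0.305), with 5.08% of probe sets called.

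**Figure D2:**
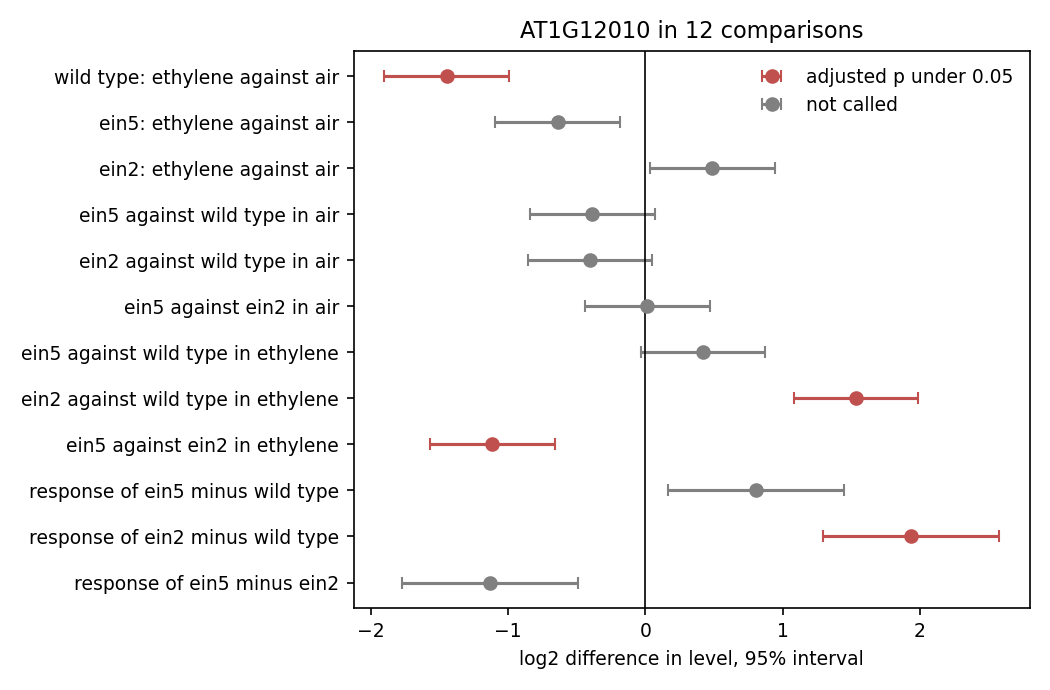
Log2 difference of AT1G12010 (horizontal axis) in the 12 comparisons, each with its 95% interval from the limma fit. Red points have an adjusted p under 0.05 over all probe sets. The 4 called comparisons are the wild-type fall of -1.45, the differences from ein2 on ethylene, at 1.53 and -1.11, and the difference of the ein2 and wild-type responses, at 1.93.

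Ordered by mean level, ein2 after ethylene came first, followed by wild type in air, ein5 in air, ein2 in air, ein5 after ethylene and wild type after ethylene. The means of the last 5 groups in this order were 1873, 1434, 1425, 909 and 685, below the 1988 of ein2 after ethylene. No pair of neighbours in the order differed past the threshold. The largest gap was that of ein2 in air over ein5 after ethylene, at 0.62 ± 0.21 (adjusted p = 0.0852). The arrays overlapped between ein2 after ethylene and wild type in air and between ein5 in air and ein2 in air. Of all 15 pairs of groups, 6 differed past the threshold. These were wild type after ethylene against every group except ein5 after ethylene, and ein5 after ethylene against ein2 after ethylene and wild type in air. The order was the same with the values as deposited and after quantile normalization.

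The residual SD of the probe set within groups was 0.24 on the log2 scale, larger than that of 52.5% of probe sets, whose median was 0.23. The 2 wild-type ethylene arrays differed by 0.51 on this scale for AT1G12010, against a median of 0.32 over all probe sets on the same 2 arrays. The ein2 air arrays differed by 0.43, against a median of 0.19, a wider gap than for 74.9% of probe sets, and the ein5 air arrays by 0.34, against 0.21. In the other groups the gap was 0.18 in ein2 after ethylene, 0.07 in ein5 after ethylene and 0.26 in wild type in air, against medians of 0.19, 0.20 and 0.25. The deposited medians of the arrays were 922 to 1039, and the log2 values of paired replicates correlated at 0.960 to 0.975 across probe sets, least in wild type after ethylene. Separate cultures for the arrays of a group are not stated in the labels, so the p-values measure a spread that may be technical.

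Of 33 genes of ethylene synthesis listed by locus, the ACC oxidase AT1G12010 and ARD4 had a probe set with a single named gene. The other 31, among them the other ACC oxidases and all 11 ACC synthases, are not named in the annotation used and were not analysed here. ARD4 encodes an acireductone dioxygenase of the cycle that returns the methylthio group to methionine. Its level was 8300 ± 67.9 in ein2 after ethylene against 8383 ± 53.0 in ein2 in air, and 7786 ± 2077 in wild type after ethylene against 7814 ± 2196 in wild type in air (SD, n = 2 each). ARD4 changed by 0.00 ± 0.18 in wild type (95% interval -0.39 to 0.39, adjusted p = 0.997), so a change of the size of that of AT1G12010 lies outside its interval. In ein5 it differed by 0.13 ± 0.18 (adjusted p = 0.864) and in ein2 by -0.01 ± 0.18 (adjusted p = 0.989).

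Among 22 listed genes of ethylene signalling, RTE1, RTH and EIN3 were measured and named, while EIN2 and EIN5 themselves were not analysed here. RTE1, a regulator of the receptor ETR1, was called higher after ethylene in all 3 genotypes, by 1.32 ± 0.12 in ein2, 1.28 ± 0.12 in ein5 and 1.96 ± 0.12 in wild type (adjusted p = 4.79e-05, 7.24e-05 and 1.6e-07). Unlike AT1G12010, RTE1 was thus called in ein2 as well, although no test between the 2 genes was made. RTH, the homologue of RTE1, showed -0.36 ± 0.16 in wild type (adjusted p = 0.207), -0.06 ± 0.16 in ein5 (adjusted p = 0.953) and 0.21 ± 0.16 in ein2 (adjusted p = 0.743). The ethylene change of EIN3 was not called in any genotype and lay within 0.05 of no change in each. It was -0.01 ± 0.12 in ein2, -0.04 ± 0.12 in ein5 and 0.03 ± 0.12 in wild type (adjusted p = 0.984, 0.948 and 0.943). Between genotypes, EIN3 was called lower in ein2 than in wild type on ethylene (-0.45), where 3.47% of all probe sets were called lower. In air that difference was -0.41 and was not called. Of these 3 genes, 1 rose and 0 fell in wild type, where 2 had an unadjusted limma p under 0.05, against 3.82% called higher and 6.28% called lower over all probe sets.

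The wider oxygenase superfamily gave a point of comparison within the enzyme class. Of 52 listed genes, which include gibberellin and flavonoid oxygenases and genes whose proteins resemble ACC oxidase, 26 were measured and named. The listed gibberellin and flavonoid oxygenases were not among the 26. In wild type after ethylene 1 of them rose, 4 fell and 21 did not pass the test, with a median change of -0.21, against 0.02 over all probe sets, of which 3.82% were called higher and 6.28% lower. AT1G14120, known as DAO2 and a relative of the auxin oxidase DAO1, fell to 2457 and 2031 after ethylene in wild type, against 5280 and 5221 in air (-1.23 ± 0.12, adjusted p = 1.71e-05). Its arrays did not overlap, and its change in ein2 was -0.05 ± 0.12 (adjusted p = 0.938). The ein2 response of AT1G14120 differed from that of wild type by 1.17 ± 0.17 (adjusted p = 0.00173).

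AOP1, of a family known for glucosinolate side-chain oxidation, fell by 0.85 on the log2 scale in wild type (adjusted p = 0.00247). The gene 2A6 (AT1G03410) fell by 1.05 by its first probe set (adjusted p = 0.000713), and its second probe set showed -0.72 ± 0.17 (adjusted p = 0.0165). AT1G06640 fell by 0.49 (adjusted p = 0.0147), a call lost without a variance trend, with the 4 wild-type arrays alone, with array weights and without wild-type air 2 (adjusted p up to 0.215). In the difference of the ein2 and wild-type responses, 2 of the 26 genes were called positive, AT1G14120 and 2A6, where 2.8% of all probe sets were. That of 2A6, at 0.94 ± 0.23 (adjusted p = 0.0374), was lost under 13 of 21 alternatives, among them the omission of any one of 10 arrays, and was not called by its second probe set (0.67 ± 0.25, adjusted p = 0.168).

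AT5G59540, another gene of this superfamily, went the other way. It reached 13831 and 19557 after ethylene in wild type, against 4369 and 4767 in air (1.85 ± 0.20, adjusted p = 3.81e-05). In ein2 it was 5615 and 5503 after ethylene, against 2264 and 1558 in air (1.56 ± 0.20, adjusted p = 0.00162, or 0.0968 without a variance trend). The groups did not overlap in either genotype. In ein5 the change was 0.73 ± 0.20 (adjusted p = 0.103). AT5G59540 was the one superfamily gene called in ein2 after ethylene, where 0.514% of all probe sets were called. In ein5, where 1.62% of all were called, limma called 0 of the 26. Among them 6 had an unadjusted p under 0.05, 7 had a positive sign and the median change was -0.15.

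**Figure D3:**
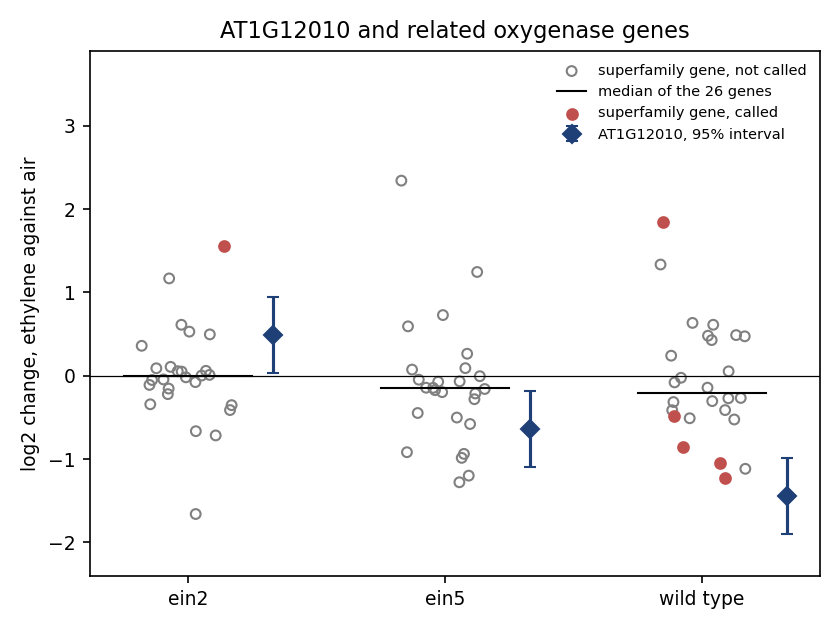
Log2 change of ethylene against air (vertical axis) in ein2, ein5 and wild type for 26 oxygenase superfamily genes (circles, red where the adjusted p is under 0.05) and AT1G12010 (diamonds with 95% intervals). Black lines are medians of the 26 genes, at -0.01 in ein2, -0.15 in ein5 and -0.21 in wild type, and AT1G12010 stands at 0.49, -0.64 and -1.45.

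Markers of seedling organs were read beside the wild-type result. Of 35 marker genes listed, 4 were measured and named, and 0 of the 11 seed maturation markers were among them. PORB, a protochlorophyllide oxidoreductase that is abundant in plastids of dark-grown seedlings, averaged 56441 ± 22519 after ethylene in wild type against 31783 ± 5284 in air (0.78 ± 0.22, adjusted p = 0.0408), a call lost under 14 of 21 alternatives (adjusted p up to 0.314). EXPA7, an expansin of root hairs, averaged 2313 ± 266 after ethylene in wild type against 1333 ± 384 in air (0.81 ± 0.22, adjusted p = 0.0304), a call lost without wild-type air 2, without wild-type ethylene 2, without a variance trend, with the compared groups alone and with array weights (adjusted p up to 0.240), and it showed 0.79 ± 0.22 in ein2 and 0.57 ± 0.22 in ein5 without a call (adjusted p = 0.177 and 0.276). The root hair expansin EXPA18 (0.31 ± 0.16, adjusted p = 0.275) and the leaf marker RCA, Rubisco activase (0.50 ± 0.23, adjusted p = 0.207), were not called in wild type. All 4 markers had a positive change in wild type, none was at 0 on any array, and their summed level was 65323 to 113869 on the wild-type ethylene arrays against 48217 to 61561 on the wild-type air arrays. In ein2 the sum was 60895 to 61488 after ethylene against 53973 to 60344 in air, and in ein5 it was 62294 to 67071 after ethylene against 59351 to 63821 in air. PORB makes up most of these sums, and the part of these markers in the fall of AT1G12010 was not tested.

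None of the genes measured beside AT1G12010 on chromosome 1 was called after ethylene in any genotype. The nearest measured genes were AT1G11990 and AT1G12000 on one side and AT1G12030 and AT1G12070, 4 and 10 genes away, on the other. AT1G12000, which encodes a subunit of a pyrophosphate-dependent phosphofructokinase, lies next to it and had 10415 ± 801 after ethylene in wild type against 9621 ± 2393 in air (0.13 ± 0.15, adjusted p = 0.684). AT1G12070 had -0.52 ± 0.24 in ein2 (adjusted p = 0.487), -0.41 ± 0.24 in ein5 (adjusted p = 0.548) and -0.48 ± 0.24 in wild type (adjusted p = 0.262). AT1G11990 and AT1G12030 had group means under 100, close to the dimmest values on the arrays. Their changes had wide standard errors, of 0.83 and 0.91.

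The genes with the most similar profile were found by Pearson correlation of log2 levels over the 12 arrays, among 5917 single-gene probe sets of at least median level. The 8 highest were AT2G48030 and SWEET17 (both r = 0.969), AT2G44940 (0.950), PME61 (0.942), AT3G19030 and AT3G61160 (both 0.941), and AT2G16630 and LSH5 (both 0.934). Spearman's rho of these genes was 0.888 to 0.965, and the median r over all candidates was 0.04. These correlations describe the same 12 arrays, with 6 groups behind them, and the genes were picked for them. SWEET17 encodes a vacuolar fructose transporter, PME61 a pectin methylesterase and AT2G16630, known as FOCL1, a cell wall protein of guard cells.

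SWEET17 averaged 4376 ± 163 in ein2 after ethylene against 3533 ± 198 in ein2 in air, and 828 ± 323 in wild type after ethylene against 5409.6 ± 1307 in wild type in air. Its ein5 means were 1463 ± 144 after ethylene and 3417 ± 433 in air. PME61 had the same order within each genotype, at 3493 ± 186 and 2714 ± 47.5 in ein2, 1403 ± 83.1 and 2656 ± 233 in ein5, and 1013 ± 121 and 3273 ± 901 in wild type, ethylene before air (SD, n = 2 in each group). All 8 genes fell in wild type, by 0.75 to 2.72 on the log2 scale, although the call of AT3G19030 was lost under 3 alternatives (no variance trend, the wild-type arrays alone, and without wild-type air 1, adjusted p up to 0.0574). Their choice by likeness to AT1G12010 over these same arrays favoured such a fall, and 6.28% of all probe sets were called lower in wild type. Of the 8, 0 were called in ein2 by limma, near the share of 0.514% called over all probe sets. Their changes in ein2 were 0.14 to 0.36, and 1 had an unadjusted limma p under 0.05. AT1G12010, at 0.49 over all arrays, had a larger positive value in ein2 than any of the 8, though it was not called. Its interval of 0.04 to 0.94 covers the values of all 8, and no test between the genes was made. Without ein2 air 1 the change of AT1G12010 was 0.27, inside the range of 0.14 to 0.36 that the 8 had over all arrays. In ein5, where 0.849% of all probe sets were called lower, SWEET17, PME61 and AT2G16630 were called lower. Each of these calls was lost without a variance trend. SWEET17 and PME61 also lost it on leaving out any of the 4 ein5 arrays (adjusted p over all alternatives up to 0.160 for SWEET17, 0.157 for PME61 and 0.0503 for AT2G16630).

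The 4 genes with the most opposite profile were AT3G27180 (r = -0.960), AT1G50660 (-0.929), AT5G24490 (-0.919) and AT3G17680 (-0.917). AT3G17680 averaged 1068 ± 144 in ein2 after ethylene against 1221 ± 156 in ein2 in air, 2503 ± 72.7 in ein5 after ethylene against 1192 ± 261 in ein5 in air, and 2463 ± 228 in wild type after ethylene against 796 ± 220 in wild type in air (SD, n = 2 each). It was called higher in ein5 (1.08 ± 0.21, adjusted p = 0.0185), a call lost without a variance trend and without ein5 air 1, ein5 ethylene 1 or ein5 ethylene 2 (adjusted p up to 0.196), and in wild type (1.63 ± 0.21, adjusted p = 0.000142).

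**Figure D4:**
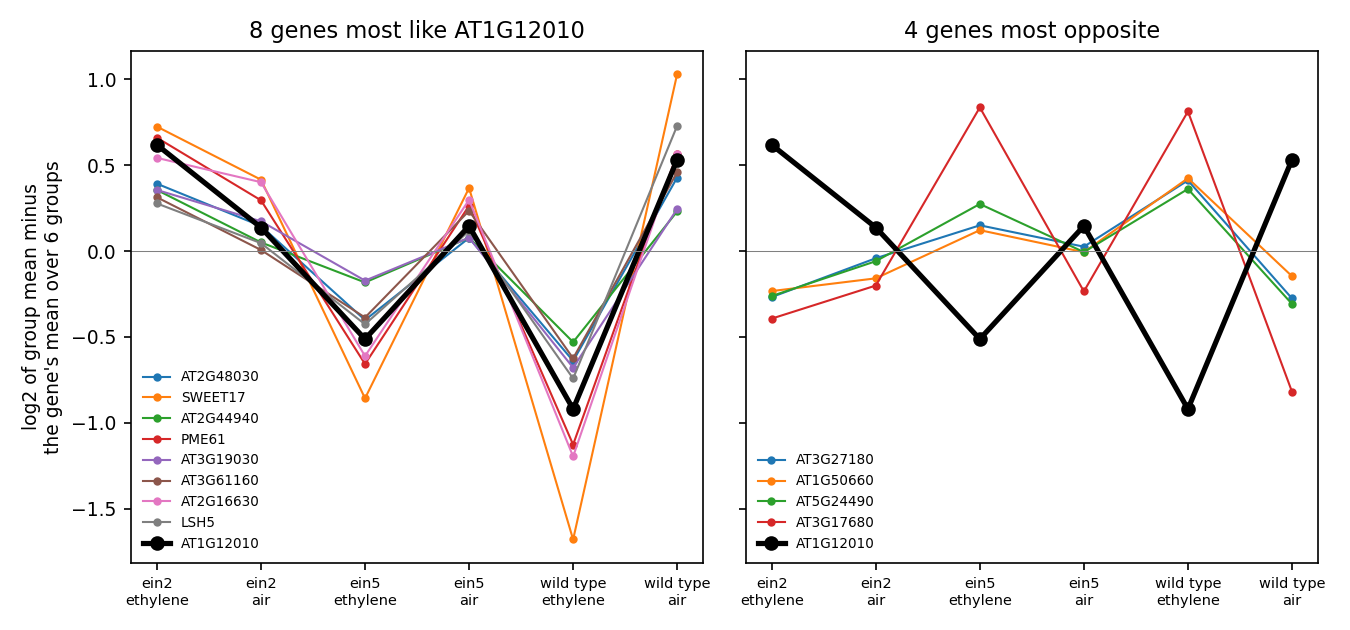
Profiles over the 6 groups for the 8 genes most like AT1G12010 (left) and the 4 most opposite (right). The vertical axis is the log2 of each group mean minus the gene's own mean over the 6 groups, points are groups, and the thick black line is AT1G12010. Like AT1G12010, the genes on the left are lowest in wild type after ethylene, which their choice by likeness over the same arrays favours.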

How the data were processed

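Per the labels' protocols, the authors read the arrays with GeneChip Suite 3.2 and managed the data in GeneSpring 4.2. The deposited table holds intensities of 22746 probe sets on a linear scale. Their mean after trimming 2% at each end was 2480.3 to 2487.2 on every array, a scaling not given in the sources used here, and the division by the median that the series text describes is not visible in the values. Here the arrays were scaled to a common median, taken over values above 10 (factors 0.949 to 1.07). An offset of 16 preceded the log2 step and makes changes of dim genes too small.

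Groups and replicate numbers came from the sample titles. limma 3.58.1 in R 4.3.3 fitted the 6 group means to all 12 arrays with a variance trend, and 12 two-sided comparisons were tested, each adjusted over all probe sets by Benjamini-Hochberg. The fit was also run on simulated normal values with changes planted in wild type after ethylene. That run checks the code alone and not the calls made here. With 2 arrays a group, their number limits the precision. The ± after a change is its standard error, and intervals are at 95%.

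Of the probe sets 13513 had 1 gene, 503 had several and 8730 were not listed. Genes were matched by gene ID to the TAIR10.1 table (13436 matched), and for a gene with several probe sets the first was used. The named genes were AT1G12010, the listed synthesis and signalling genes, the 2 nearest measured genes on each side, up to 6 called superfamily genes and the 8 most and 4 least similar profiles. The lists were written by locus from textbook knowledge. The gene and the lists were chosen with earlier results of these data known. Alternatives were the scaling, offset, variance model, weights, a filter at 200, the arrays in the fit and a replicate block. No effect shared by samples of the same replicate number was seen. A planned description of promoter motifs was not run, and no sequence is shown.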

Additional observations from a re-analysis of the deposited data

Results flagged for a closer look

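The response of AT1G12010 to ethylene differed between ein2 and wild type by 1.93 ± 0.30 on the log2 scale in the test of the difference itself (limma, adjusted p = 0.00232). The ethylene arrays lay above the air arrays in ein2, at means of 1988 and 1425, and below them in wild type, at 685 and 1873. Each group holds 2 arrays, too few to ask whether a single array stands far from its group.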

How the results depend on the processing

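Over 21 alternatives, the wild-type change of AT1G12010 on ethylene (adjusted p up to 0.0126), the ein2 minus wild-type difference on ethylene (up to 0.00874) and the difference of the ein2 and wild-type responses (up to 0.0449, without a variance trend) kept their sign and their call. Leaving out 1 array at a time gave -1.70 to -1.19, 1.28 to 1.79 and 1.68 to 2.19. On leaving out 1 array, the ein5 minus ein2 difference on ethylene ranged from -1.21 to -1.02. It was -1.02 without ein2 ethylene 2, where it was not called. The ein5 minus ein2 difference in air ranged from -0.20 to 0.23 and was negative without ein2 air 1 (-0.20) and ein5 air 1 (-0.16), and no comparison that missed the threshold passed it. With the replicate number as a block the wild-type change stayed at -1.45 (limma, adjusted p = 0.000624) and no call of AT1G12010 changed. The correlations of replicate differences between groups were -0.04 to 0.07, so no effect shared by samples of the same number was seen. This cannot show whether samples of the same number were handled together.

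The number of probe sets called, and with it the adjusted p, depended on the fit. For wild type on ethylene it was 2298, against 1323 without a variance trend, 813 with the compared groups alone and 1309 with array weights, and for ein5 369, against 50 without a trend and 867 with weights. For ein2 it was 117, against 34, 458 and 292 under the same 3 settings. In air, ein5 against wild type had 1320, against 18 without a trend and 5 with the compared groups alone; ein2 against wild type had 616, against 123 and 265; ein5 against ein2 had 722, against 124 without a trend and 1681 with weights. On ethylene the counts were 1156 for ein5 against wild type (317, 254 and 686 under the 3 settings), 2246 for ein2 against wild type (1438 and 1267 under the first 2) and 2318 for ein5 against ein2 (819 without a trend, 3689 with weights). The difference of responses had 121 calls for ein5 minus wild type (20 and 26 under the first 2), 854 for ein2 minus wild type (243 and 536) and 12 for ein5 minus ein2 (0 to 301 over all alternatives). Leaving out 1 array gave 1589 to 2846, 106 to 576 and 40 to 199 calls on ethylene in wild type, ein5 and ein2. In air it gave 46 to 2197 for ein5 against wild type, 160 to 986 for ein2 against wild type and 117 to 1246 for ein5 against ein2, and on ethylene 336 to 2539, 1131 to 2425 and 647 to 3319 for the same pairs. For the differences of responses it gave 29 to 402 for ein5 minus wild type, 332 to 1174 for ein2 minus wild type and 0 to 88 for ein5 minus ein2. The cause was not tested.

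Called results of other named genes were rechecked for ethylene against air in each genotype and for each mutant response minus that of wild type. Of these 42, 22 kept their call under every alternative and 0 turned their sign. Genotype differences of these genes within a gas were not part of this count. By Spearman correlation, 3 of the 8 genes most like AT1G12010 were again among the first 8.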
